A study of Mus musculus with 3 samples.

Results

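The epidermal growth factor (EGF) family ligands *Areg*, *Ereg*, *Epgn*, *Hbegf*, *Tgfa*, *Btc* and *Nrg1* and the receptor gene *Egfr* were measured by single-cell RNA sequencing in dorsal skin of female C3H/HeN mice aged 25 weeks. These 8 genes, of 32285 in the count matrices, were taken by name as the family's ligands and its main epidermal receptor. The set was chosen by measured UMI levels, because *Epgn* and *Nrg1* led a basal keratinocyte cluster with many cells of the alopecia areata (AA) library, so the levels of the members in that cluster and between these libraries are a description. Neg was the negative (vehicle) control, given in the design text as unaffected mice. AA was the AA model, made by transfer of in vitro-expanded skin-draining lymph node cells from affected donors, and AA+Ab was the same model given an antibody that neutralizes CXCL12. Each group was 1 library from the pooled skin of 7 to 8 mice, so no value has a replicate and no test between groups was possible. All intervals are 95% and cover counting error only.

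EGF family ligands are made as membrane proteins, released by proteases and bound by receptor tyrosine kinases of the ErbB family. EGFR, the member that dominates in epidermis, binds amphiregulin (*Areg*), epiregulin (*Ereg*), epigen (*Epgn*), heparin-binding EGF-like growth factor (*Hbegf*), transforming growth factor alpha (*Tgfa*) and betacellulin (*Btc*), whereas neuregulin 1 (*Nrg1*) binds ErbB3 and ErbB4. In skin these signals act on keratinocyte growth, survival, wound closure and the hair cycle. *Areg* is also made by T cells and innate lymphoid cells during tissue repair.

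The genes of 4 ligands lie in 1 stretch of chromosome 5 (GRCm38). In order along it are *Epgn* (chr5:91027464-91035215, + strand), *Ereg* (chr5:91074622-91093646, +), *Areg* (chr5:91139599-91148432, +) and *Btc* (chr5:91357261-91402994, −). The gaps between neighbours are 39.4, 46.0 and 209 kb. *Tgfa* is at chr6:86195223-86275719 (+), *Nrg1* at chr8:31814551-32884029 (−) and *Egfr* at chr11:16752203-16918158 (+). *Ereg*, *Tgfa*, *Nrg1* and *Egfr* each overlap an annotated gene on the opposite strand, such as *Egfros* for *Egfr*. *Epgn* and *Areg* are near neighbours whose UMIs lay in different cell classes, and the bases before the earlier annotated start of each (sequence from RefSeq, GRCm38.p6, + strand, 5′ to 3′) are shown for that reason. For *Epgn* that is the GENCODE start, which lies before the RefSeq start. Capitals mark TGACGTCA (cyclic AMP response element) and TATAAA (a core promoter box).
*Epgn*, chr5:91027267-91027463: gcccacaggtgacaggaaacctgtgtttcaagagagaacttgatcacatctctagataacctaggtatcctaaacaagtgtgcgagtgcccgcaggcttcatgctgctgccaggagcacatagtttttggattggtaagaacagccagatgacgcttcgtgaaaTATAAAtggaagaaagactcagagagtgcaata
*Areg*, chr5:91139349-91139598: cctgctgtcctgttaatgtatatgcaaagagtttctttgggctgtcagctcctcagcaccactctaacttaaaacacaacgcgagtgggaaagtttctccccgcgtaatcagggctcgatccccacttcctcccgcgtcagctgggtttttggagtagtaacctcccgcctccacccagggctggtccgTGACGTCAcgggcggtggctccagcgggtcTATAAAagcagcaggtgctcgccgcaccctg
The TATAAA of *Areg* began 31 bases before its start and that of *Epgn* 33 bases before the GENCODE start and 86 before the RefSeq start. Read on both strands, TATAAA was found in 13.6% of 32851 promoters (250 bases before to 50 after the start) and TGACGTCA in 1.79%. TGANTCA (AP-1 element), present in 7.81% of promoters, and TTCNNNGAA (interferon-gamma activated site), in 8.30%, were not found in the listed promoters of *Areg*, *Epgn*, *Tgfa*, *Btc* or *Egfr*.

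The libraries held 6582 Neg, 10433 AA and 9832 AA+Ab cells after cells with over 10% mitochondrial UMIs (unique molecular identifiers, counted as 1 per captured molecule) or under 200 genes were taken out. Median depth was 13694.5, 11177 and 11371 UMIs per cell, in that order. Libraries shared 17 to 28 cell barcodes per pair. Cells were clustered without the 8 genes, and clusters were called by their marker genes, with the ending "-like". A level is given as counts per 1000000 UMIs of those cells (CPM). Levels were not divided by gene or transcript length, and an effect of gene length on them was not tested. As free RNA from broken keratinocytes reaches other droplets (a *Krt5* UMI was found in 55.4% of the T cells-like), levels of keratinocyte genes in immune cells were read against it.

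Over all kept cells, *Hbegf*, *Tgfa* and *Nrg1* were 2.29 to 2.49 times as high in AA as in Neg, and *Egfr* was 1.47 times as high. In AA+Ab these 4 genes and *Epgn* were 0.406 to 0.593 times the AA level. *Ereg* and *Btc* stayed near 1 CPM or under in every library. All 8 genes had at least 50 UMIs summed over the libraries compared, the minimum for a ratio. A level over all cells cannot tell more cells of a class from more RNA per cell.

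*Hbegf*, a ligand released in wounds, had 69.3 CPM in Neg (95% interval 67.8–70.8, 8261 UMIs), 159 in AA (157–161, 21517 UMIs) and 94.1 in AA+Ab (92.5–95.8, 13149 UMIs). *Tgfa*, an autocrine keratinocyte ligand, had 10.5, 26.1 and 13.8 CPM. *Nrg1* had 58.6, 137 and 71.3 CPM. AA was thus the highest library for each of the 3, and AA+Ab lay between AA and Neg. The AA to Neg ratios were 2.29 (2.23–2.35) for *Hbegf*, 2.49 (2.33–2.66) for *Tgfa* and 2.34 (2.27–2.40) for *Nrg1*.

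*Epgn*, an EGFR ligand of epithelia, followed another order. Its level was 102 CPM in Neg (12131 UMIs), 145 in AA (19618 UMIs) and 58.7 in AA+Ab (8201 UMIs). The AA to Neg ratio was 1.42 (1.39–1.45), but it turned to 0.891 without clusters 3, 18 and 22. Cluster 3 is a basal cluster, and clusters 18 and 22 carried basal markers but stayed unnamed. AA+Ab was lower than both other libraries, at 0.406 (0.396–0.417) of AA and 0.577 (0.561–0.593) of Neg, and at 0.689 and 0.614 without those clusters. *Egfr* likewise had 316, 466 and 251 CPM, with ratios of 1.47 (1.46–1.49) for AA to Neg, 0.539 (0.532–0.546) for AA+Ab to AA and 0.795 (0.783–0.807) for AA+Ab to Neg.

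*Areg* had 9.99 CPM in Neg, 13.7 in AA and 13.6 in AA+Ab, a ratio of 1.37 (1.28–1.48) for AA to Neg and of 0.991 (0.929–1.06) for AA+Ab to AA. In Neg, 10 cells held 37.4% of the *Areg* UMIs. *Ereg* had 1.21, 0.914 and 1.39 CPM from 144, 124 and 194 UMIs, and 1 Neg cell held 62 of the 144. *Btc* had 47, 55 and 56 UMIs in all, and its 3 intervals overlapped.

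**Figure D1:**
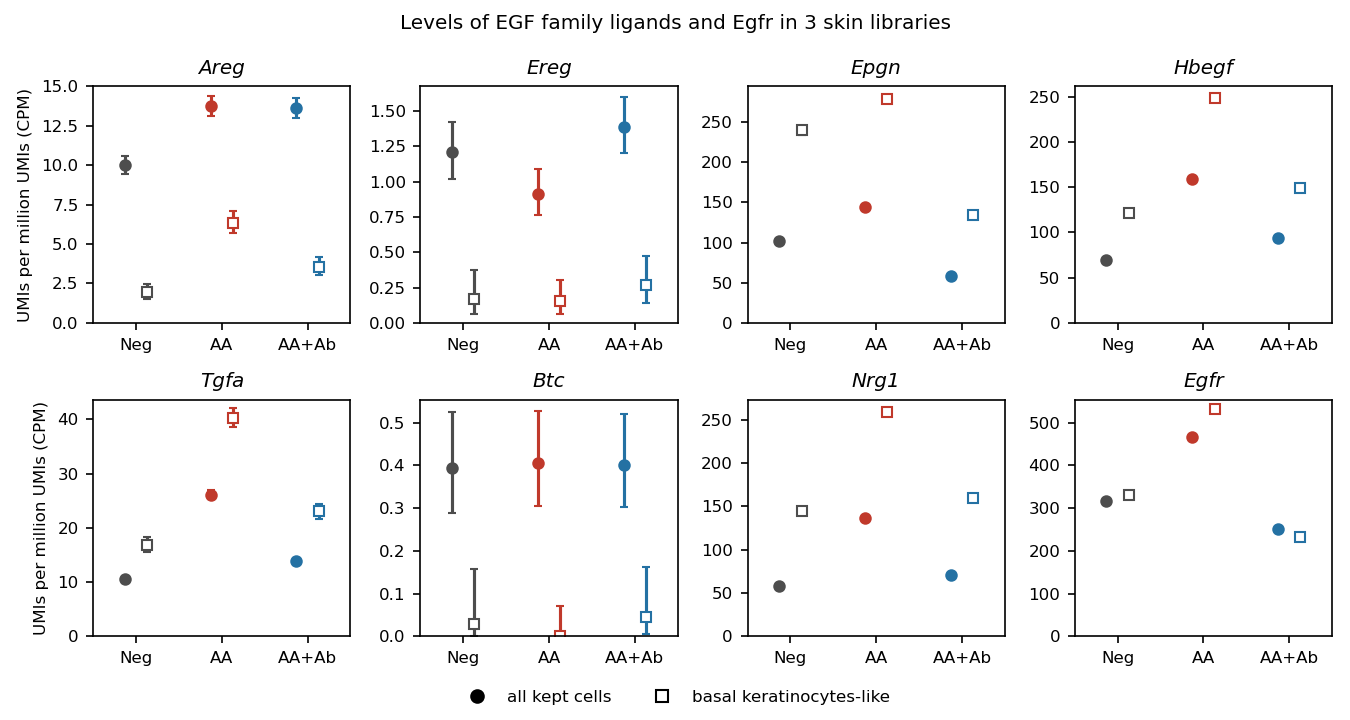
Levels (CPM, y axis from 0) of the 8 genes in each library (x axis), over all kept cells and over the basal keratinocytes-like cells, with bars for exact Poisson 95% intervals. *Hbegf*, *Tgfa*, *Nrg1* and *Egfr* are highest in AA, and *Epgn* over all kept cells is lowest in AA+Ab.

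Counted against a limit of 1.5-fold, 3 of the 8 genes were higher in AA than in Neg and none lower, where 6.6% of the 17330 genes with 50 UMIs were higher and 7.06% lower. Between AA+Ab and AA, 5 of 8 were lower (*Epgn*, *Hbegf*, *Tgfa*, *Nrg1*, *Egfr*) and *Ereg* was higher, against 9.06% and 5.11% of all genes. Between AA+Ab and Neg, *Epgn* alone of the 8 was past the limit, and was lower (6.82% of all genes were lower and 3.47% higher). The median log2 ratio over the 8 genes was 0.53, −0.82 and 0.24 in the 3 comparisons, beside −0.06, 0.01 and −0.05 over all genes. The comparisons share libraries and are given side by side.

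The basal keratinocytes-like cells, which rest on the basement membrane and express *Krt5* and *Krt14*, held most UMIs of *Epgn* and *Nrg1*. They held 69.4%, 74.0% and 72.6% of all *Epgn* UMIs in Neg, AA and AA+Ab, and 72.8%, 72.4% and 71.1% of all *Nrg1* UMIs, from 29.4%, 38.3% and 31.7% of all UMIs. For *Hbegf* the shares were 51.5%, 59.99% and 50.2%, and for *Tgfa* 47.3%, 59.1% and 52.9%. *Egfr* was spread almost as widely as RNA itself, with 30.9%, 43.8% and 29.2% of its UMIs in these cells. *Areg*, at 5.71%, 17.7% and 8.31%, lay mostly elsewhere.

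**Figure D2:**
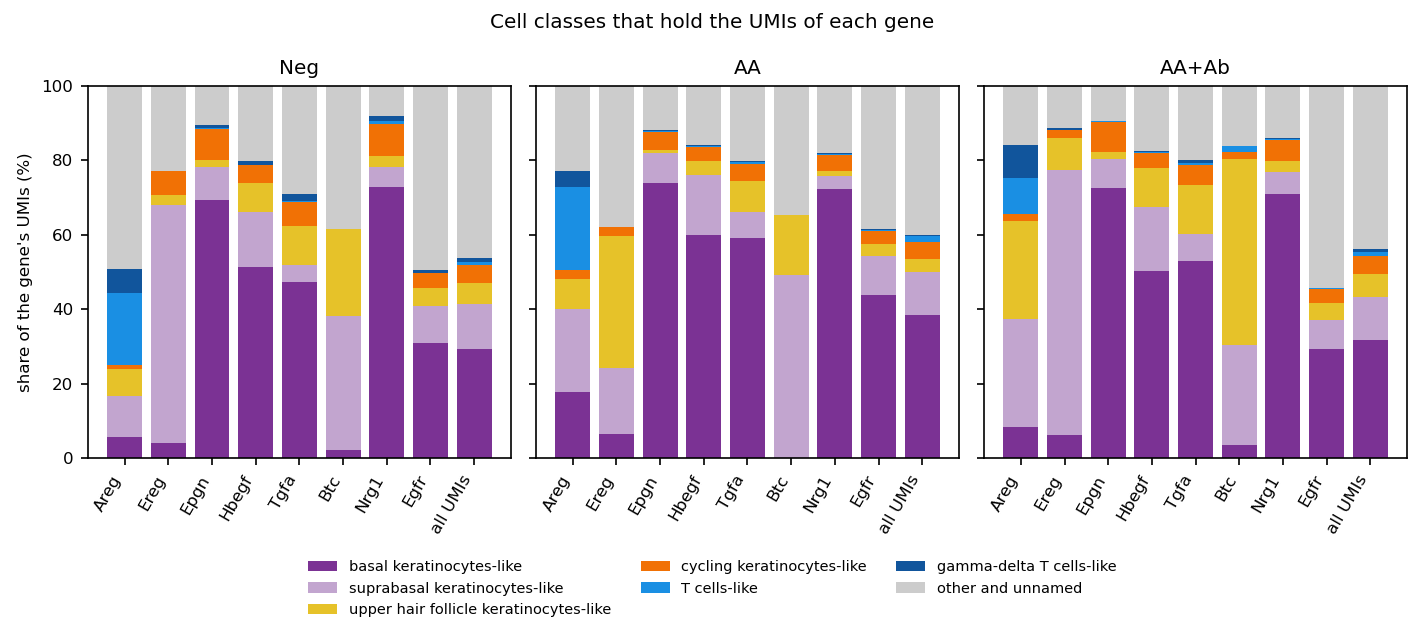
Share of each gene's UMIs (y axis, percent) held by each cell class in the 3 libraries (panels), with all UMIs as the last bar. *Epgn* and *Nrg1* have over 69% of their UMIs in basal keratinocytes-like cells in every library.

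Shares of cells with a UMI gave the same classes. In the basal keratinocytes-like cells (median 11984, 10413 and 10090 UMIs), 42.0%, 38.7% and 29.9% of cells had an *Epgn* UMI in Neg, AA and AA+Ab. In the T cells-like, which should lack it, the share was 8.04%, 5.63% and 3.38% at medians of 5377.5, 3850 and 4098 UMIs. Cells with at least 2000 UMIs (6203 Neg, 10107 AA and 9422 AA+Ab) were also thinned to 2000 UMIs each, which left out 379, 326 and 410 cells. *Epgn* was then found in 11.6%, 12.7% and 7.91% of the thinned cells, *Hbegf* in 9.66%, 18.3% and 11.2%, and *Egfr* in 40.4%, 48.3% and 34.1%. Before thinning the shares over all cells were 29.1%, 27.8% and 19.8% for *Epgn*, 30.8%, 39.9% and 28.8% for *Hbegf*, and 80.8%, 82.6% and 74.8% for *Egfr*. The unthinned *Epgn* shares of Neg and AA went against the CPM and give no order.

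**Figure D3:**
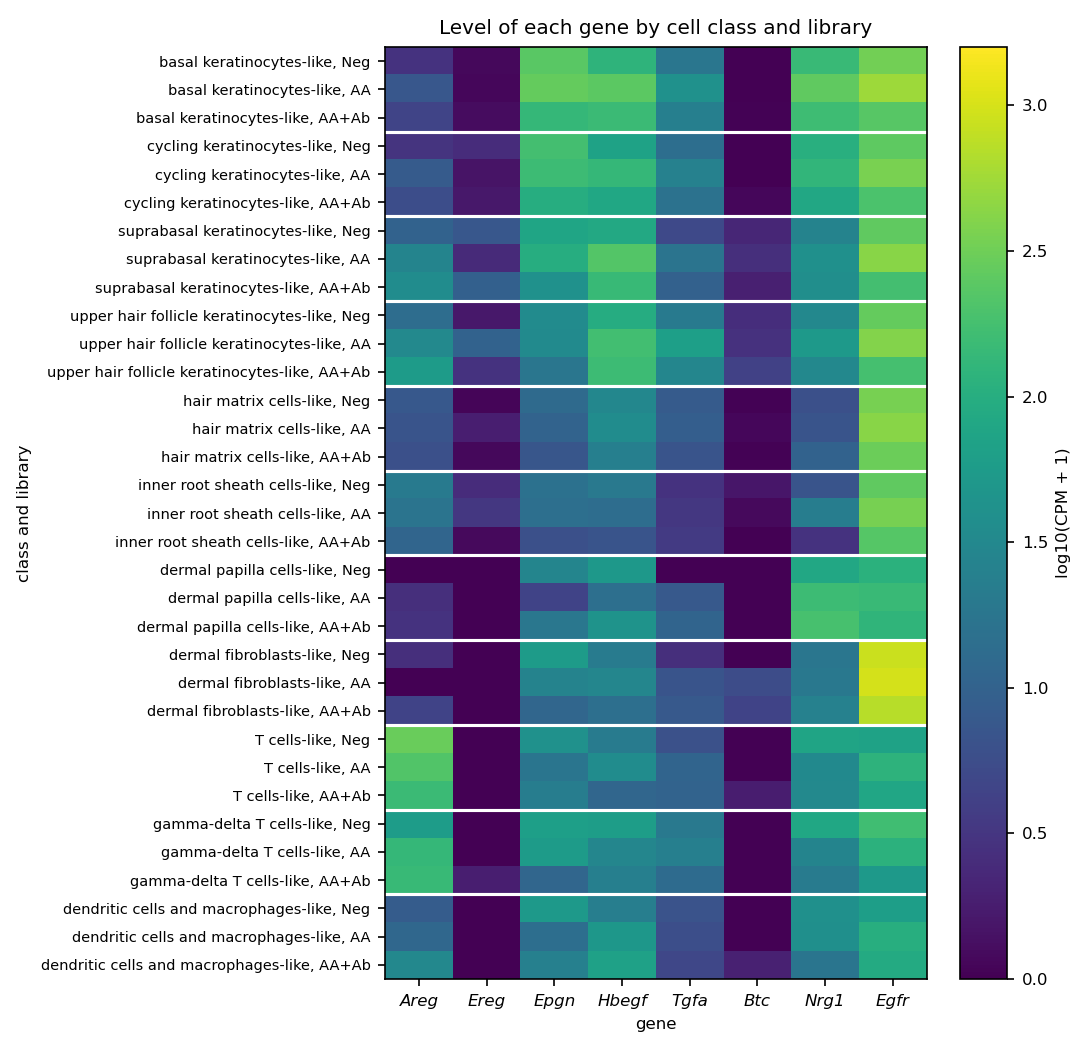
Level of each gene (x axis, colour as log10 of CPM + 1) by cell class and library (y axis, classes with at least 20 cells in the library). *Epgn*, *Nrg1*, *Hbegf* and *Tgfa* are high in basal keratinocytes-like cells, *Areg* is high in T cells-like, and *Egfr* is high in dermal fibroblasts-like cells as well as in keratinocytes.

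*Egfr* was found in all named keratinocyte classes at 173 CPM or above. Its level was 879, 998 and 718 CPM in the dermal fibroblasts-like cells (48, 114 and 31 cells in Neg, AA and AA+Ab), which are known to respond to EGF, and this range over the libraries lies above that of the basal keratinocytes-like cells, at 332, 533 and 232 CPM. The sebaceous gland cells-like, at 511, 528 and 289 CPM, and the hair matrix cells-like, at 346, 422 and 298 CPM, had ranges that overlapped those of the basal cells. The T cells-like, at 68.1, 115 and 76.3 CPM, and the gamma-delta T cells-like, at 162, 114 and 53.3 CPM, were lower than the hair matrix in each library. In 7 keratinocyte classes named here the highest library for *Egfr* was AA. In 1 of them, the sebaceous gland cells-like (25 Neg and 93 AA cells), Neg and AA were close, at 511 and 528 CPM.

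Within the basal keratinocytes-like cells (2775 Neg, 4859 AA and 4342 AA+Ab cells), *Hbegf*, *Tgfa*, *Nrg1*, *Egfr* and *Areg* were higher in AA than in Neg by more than 1.5-fold. *Epgn* was not, at 240 and 279 CPM and a ratio of 1.16 (1.13–1.20). All 6 were lower in AA+Ab than in AA. *Ereg* and *Btc*, with 8 and 0 UMIs in the AA cells of this class, gave no ratio.

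*Hbegf* had 121, 248 and 149 CPM in the basal cells of Neg, AA and AA+Ab, with AA to Neg at 2.05 (1.98–2.12) and AA+Ab to AA at 0.601 (0.583–0.619). *Tgfa* had 16.9, 40.3 and 23.0 CPM, with ratios of 2.39 (2.18–2.62) and 0.572 (0.530–0.616). *Nrg1* had 145, 259 and 160 CPM, with ratios of 1.78 (1.73–1.84) and 0.618 (0.600–0.636). These 3 ligands were highest in AA, and AA+Ab was above Neg by 1.23, 1.37 and 1.10 times. *Egfr* had 332, 533 and 232 CPM, with ratios of 1.61 (1.57–1.64) and 0.435 (0.425–0.445), and *Epgn* in AA+Ab, at 134 CPM, was 0.481 (0.467–0.496) of AA and 0.560 (0.542–0.579) of Neg. *Areg* was low, at 1.94, 6.35 and 3.57 CPM from 68, 330 and 158 UMIs, and its AA to Neg ratio was 3.27 (2.52–4.32). That ratio went from 1.79 to 4.74 over the alternatives run, and 10 cells held 64.7% of the Neg and 48.8% of the AA UMIs.

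These counts, 5 of 6 genes higher in AA than in Neg and none lower, stood beside 3.77% and 5.89% of the 13067 genes measured in the class. For AA+Ab to AA, 6 of 6 were lower, beside 6.69% of genes, and none higher, beside 5.7%. For AA+Ab to Neg, *Areg* was higher at 1.84 (1.38–2.48) and *Epgn* lower, beside 2.61% and 5.06%. The *Areg* ratio went from 0.890 to 2.01 over the alternatives run, with the lowest value at 1.5 times the clustering resolution, and it was under 1.5 with doublets removed or cells thinned.

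**Figure D4:**
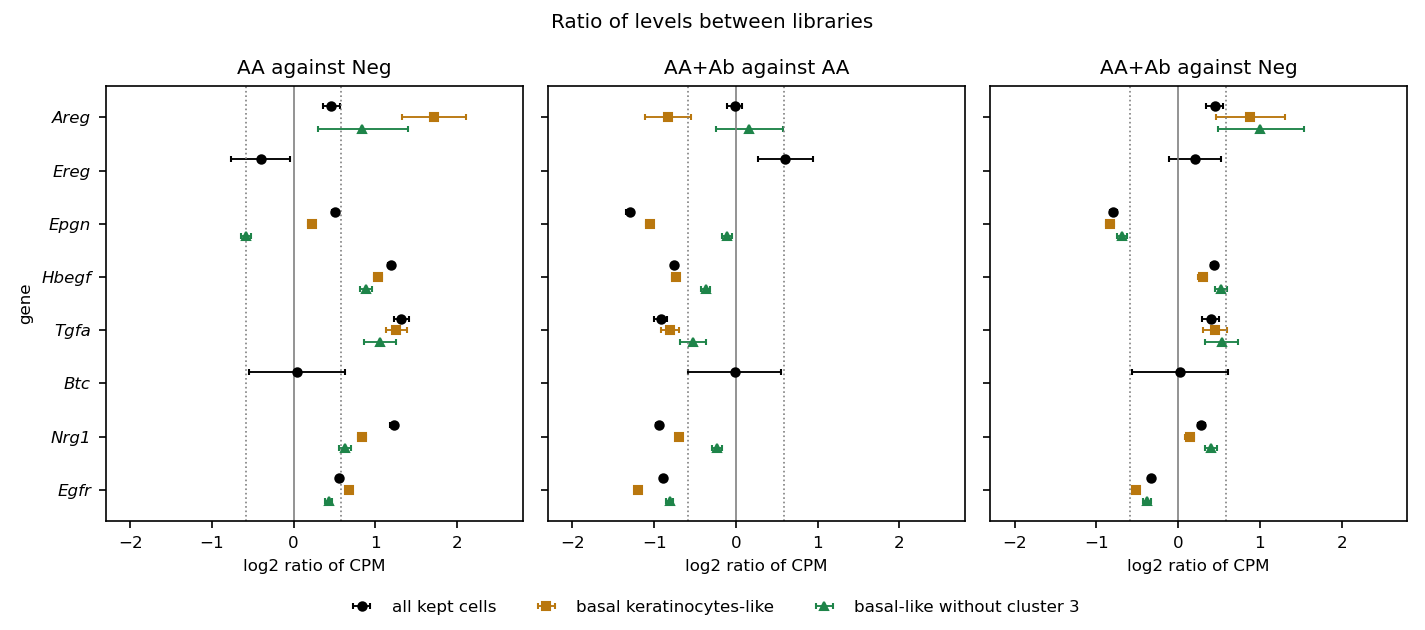
Log2 ratio of CPM (x axis) of each gene (y axis) in the 3 comparisons (panels), over all kept cells, over basal keratinocytes-like cells and over those cells without cluster 3, with 95% intervals for counting error. Without cluster 3 the AA to Neg ratio of *Epgn* falls below 0, and the AA+Ab to AA ratios move towards 0.

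The basal class held 4 clusters, and the ligands were unevenly divided among them. Cluster 3, with *Itgb6*, *Ptgs2*, *Serpinb2* and *Thbs1* beside *Nrg1* among its leading genes, had 578 Neg, 1627 AA and 603 AA+Ab cells. It was the largest basal cluster in AA and cluster 0 the largest in Neg and AA+Ab. *Nrg1* had 347, 469 and 415 CPM in cluster 3, against 49.9 to 60.4 CPM in cluster 0 over the 3 libraries. *Epgn* had 452, 541 and 267 CPM in cluster 3 and 81.3 to 96.9 in cluster 0, with 291, 172 and 186 CPM in cluster 2. *Tgfa* had 34.0, 66.4 and 54.8 CPM in cluster 3, 25.2, 55.7 and 30.1 in cluster 1, and at most 17.4 in clusters 0 and 2.

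*Hbegf* in cluster 3 was 246, 402 and 304 CPM, and *Egfr* was 575, 834 and 405 CPM. In each library both genes were higher there than in clusters 0, 1 and 2. In cluster 1, led by *Fst*, *Sostdc1* and *Aqp3*, *Nrg1* had 63.8, 198 and 91.3 CPM and *Hbegf* 78.2, 173 and 128 CPM, so AA was again the highest library. In clusters 0 and 2 *Nrg1* was instead highest in AA+Ab, at 49.9, 53.1 and 60.4 CPM and at 121, 134 and 184 CPM. *Tgfa* in cluster 2 had that order too, at 9.86, 12.3 and 17.4 CPM, whereas *Hbegf* was highest in AA in both clusters. *Areg* in cluster 3 was 3.01, 11.9 and 5.30 CPM.

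Within cluster 3 the AA to Neg ratios were 1.20 (1.15–1.24) for *Epgn*, 1.35 (1.30–1.41) for *Nrg1*, 1.63 (1.56–1.71) for *Hbegf*, 1.96 (1.72–2.23) for *Tgfa*, 1.45 (1.40–1.496) for *Egfr* and 3.96 (2.62–6.25) for *Areg*. Without cluster 3 the basal cells gave 0.668 (0.640–0.698) for *Epgn*, the opposite direction, and 1.55, 1.85, 2.08, 1.35 and 1.79 for *Nrg1*, *Hbegf*, *Tgfa*, *Egfr* and *Areg*. The AA to Neg direction of these 5 genes was therefore the same in cluster 3 and in the pool of the other basal cells, whereas that of *Epgn* was not. Within that pool *Nrg1*, *Hbegf*, *Tgfa* and *Egfr* were higher in AA than in Neg in each of clusters 0, 1 and 2. *Areg* was higher only in cluster 1, at 0.965 CPM in Neg and 5.57 in AA (6 and 54 UMIs). It was not higher in cluster 0, at 0.728 and 0.693 CPM (7 and 7 UMIs), or in cluster 2, at 2.74 and 2.53 CPM (30 and 31 UMIs).

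For AA+Ab to AA, cluster 3 alone gave 0.494 for *Epgn*, 0.486 for *Egfr* and 0.444 for *Areg*, and 0.757, 0.824 and 0.884 for *Hbegf*, *Tgfa* and *Nrg1*. The basal cells without cluster 3 gave 0.571 (0.554–0.588) for *Egfr*, and 0.695 to 0.927 for *Tgfa*, *Hbegf*, *Nrg1* and *Epgn*. Only *Egfr* of the 6 genes was thus past 1.5-fold in those cells, where 5.35% of all genes were lower and 3.49% higher. *Areg* was at 1.12 (0.848–1.49) there, from 92 AA and 119 AA+Ab UMIs, and its interval holds 1.

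**Figure D5:**
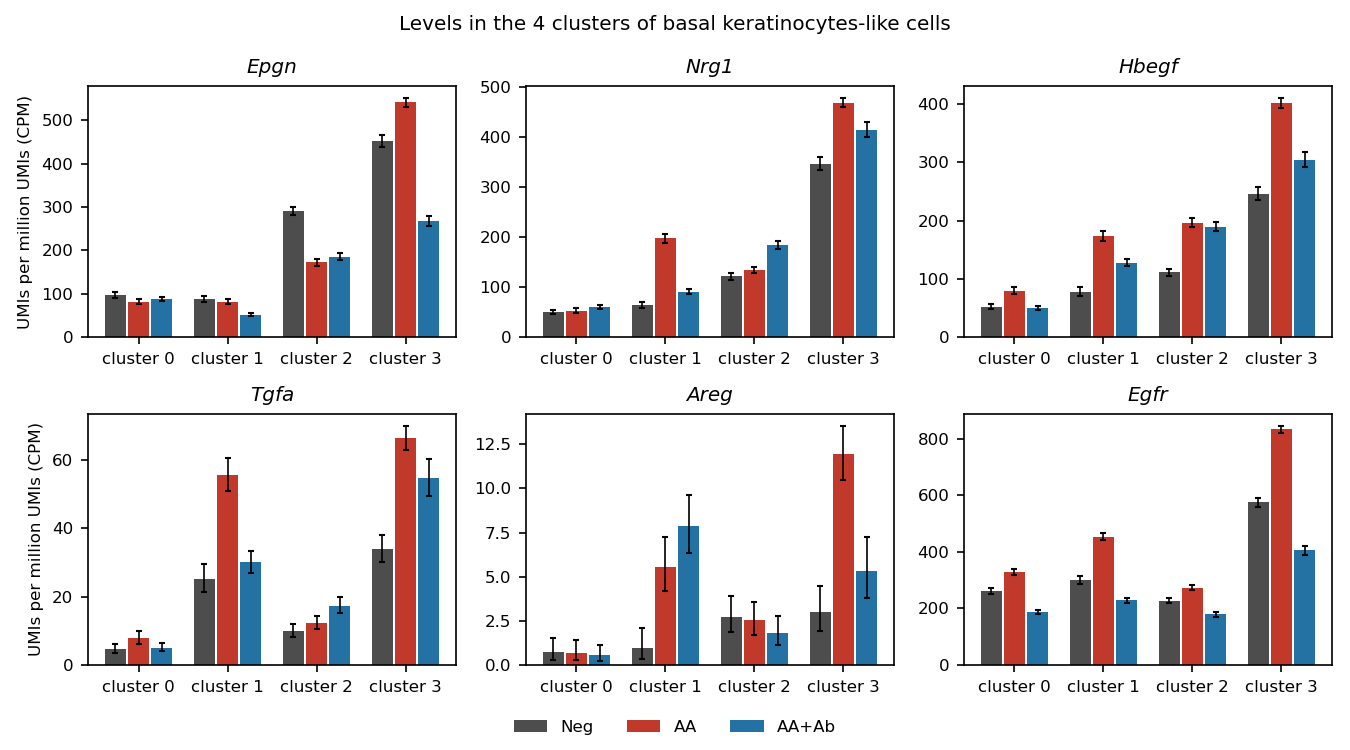
Levels (CPM, y axis from 0) in the 4 clusters of basal keratinocytes-like cells (x axis) for each library, with exact Poisson 95% intervals. *Epgn*, *Nrg1*, *Hbegf* and *Egfr* are highest in cluster 3 in every library.

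Clusters 18 and 22, which carried basal markers but stayed unnamed, also held ligand RNA. By its markers cluster 18 passed as Langerhans cells and as dendritic cells and macrophages as well. Cluster 18, led by the interferon-induced genes *Iigp1*, *Gbp2b* and *Gbp2*, had 6 Neg, 270 AA and 37 AA+Ab cells, and *Epgn* was at 327 and 206 CPM and *Hbegf* at 298 and 331 CPM in its AA and AA+Ab cells. Cluster 22, with *Nrg1* and *Itgb6* among its leading genes, had 19, 178 and 50 cells with medians of 3270, 3029 and 3288.5 UMIs. Its *Nrg1* was at 1121 CPM in AA and 1908 in AA+Ab, where 1 cell held 175 of 332 UMIs, and its *Egfr* was at 1874 and 1212 CPM. Too few Neg cells were in either cluster for a level.

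The suprabasal keratinocytes-like cells, which lie above the basal layer and express *Krt1* and *Krt10*, had the same order of libraries for several ligands. *Hbegf* was at 84.5, 219 and 142 CPM in Neg, AA and AA+Ab, *Tgfa* at 4.05, 15.9 and 8.88, and *Egfr* at 264, 426 and 173. The AA to Neg ratios were 2.60 (2.43–2.78), 3.93 (2.95–5.33) and 1.62 (1.55–1.68). *Areg* was at 9.16, 26.5 and 34.6 CPM, so AA+Ab was the highest library for it, at 1.31 (1.15–1.49) of AA. *Epgn* was at 74.9, 99.0 and 40.5 CPM. Of 7 members measured in this class, 5 were higher in AA than in Neg and 1 was lower, beside 4.48% and 10.1% of all genes.

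The lower one was *Ereg*, with 92 UMIs in Neg, 22 in AA and 138 in AA+Ab suprabasal cells (6.43, 1.40 and 8.63 CPM). A single Neg cell held 62 of the 92, and without it the Neg level was 2.11 CPM. In the upper hair follicle keratinocytes-like cells *Ereg* had 4, 44 and 17 UMIs, and 1 AA cell held 31 of the 44. *Ereg* had no UMI in T cells-like, dermal fibroblasts-like, dermal papilla cells-like or dendritic cells and macrophages-like of any library. *Btc* also lay in suprabasal cells, with 17, 27 and 15 UMIs, and in upper hair follicle cells, with 11, 9 and 28 UMIs.

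The upper hair follicle keratinocytes-like cells, marked by *Krt79* and *Cst6*, had *Tgfa* at 19.6, 62.3 and 28.4 CPM, an AA to Neg ratio of 3.17 (2.57–3.92). *Hbegf* was at 96.0, 168 and 156 CPM there. *Areg* was at 12.9, 31.4 and 56.2 CPM, with AA to Neg at 2.42 (1.85–3.19) and AA+Ab to AA at 1.79 (1.49–2.17). *Epgn* was low in this class, at 34.4, 32.6 and 16.8 CPM.

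*Nrg1* was also found in the dermal papilla cells-like, the fibroblast-like cells at the base of the follicle, at 82.7, 154 and 186 CPM from 21, 102 and 67 cells. In cluster 13, led by *Krt6a*, it was at 43.0, 323 and 152 CPM, but 1 AA cell held 640 of 1532 UMIs and the AA level without it was 189 CPM.

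*Areg* was highest in T cells-like among the classes with 50 or more cells in each library. Its level was 296 CPM in Neg (259–336, 230 UMIs), 212 in AA (192–233, 413 UMIs) and 149 in AA+Ab (129–172, 188 UMIs). An *Areg* UMI was found in 19.6%, 11.5% and 12.7% of the 112, 391 and 237 cells, against 0 of 50, 58 and 42 skeletal muscle cells-like, which should lack it and had medians of 4103.5, 2483.5 and 2063.5 UMIs. A single Neg T cell held 94 of 230 UMIs and 1 AA cell held 69 of 413. Without the richest cell of each library, Neg was at 178 CPM, AA at 177 and AA+Ab at 118. The T cells-like held 19.3%, 22.2% and 9.89% of all *Areg* UMIs from 0.653%, 1.44% and 0.901% of all UMIs. The endothelial cells-like, outside this ranking with 29, 18 and 20 cells, held 16.5% of the Neg *Areg* UMIs from 0.487% of all UMIs. A single Neg endothelial-like cell held 154 UMIs, which is 12.9% of all Neg *Areg* UMIs. The endothelial cells-like held none in AA or AA+Ab. The gamma-delta T cells-like, which in mouse epidermis are known to make growth factors for keratinocytes, had 58.1, 136 and 143 CPM.

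The T cells-like differed between libraries in their share of cells with a *Cd8a* or *Cd8b1* UMI, genes of the CD8 co-receptor, at 10.7%, 54.7% and 26.2%. In the cells with such a UMI *Areg* was at 46.3 CPM in AA (34.5–60.9, 214 cells) and 47.5 in AA+Ab (29.4–72.6, 62 cells), with no UMI in 12 Neg cells. In those without one it was at 321 CPM in Neg (281–366, 100 cells), 427 in AA (384–473, 177 cells) and 205 in AA+Ab (175–238, 175 cells). The AA level was thus the highest among cells without a CD8 UMI, and the Neg level the highest over all T cells-like with the richest cells kept. The Neg cells without a CD8 UMI held all 230 Neg UMIs, so the cell with 94 of them was there. Levels of the split without the richest cells were not computed. A cell without such a UMI can still be a CD8 T cell, as median depth was 5377.5, 3850 and 4098 UMIs. This split was chosen after the levels had been seen.

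Of the other ErbB receptors, *Erbb2* and *Erbb3* differed less than *Egfr* in basal cells. *Erbb2*, the co-receptor that binds no ligand, was at 20.03, 18.5 and 18.4 CPM there and *Erbb3*, the neuregulin receptor of keratinocytes, at 47.6, 57.1 and 48.0 CPM. *Erbb4* had too few UMIs for a ratio in basal cells. Over all cells it was low, at 3.08, 2.71 and 1.25 CPM, and in AA+Ab it was lower than in AA and in Neg by more than 1.5-fold. Of the other ligands over all cells, *Nrg4* had 2.40, 4.05 and 2.04 CPM and *Nrg3* 6.59, 3.80 and 4.42 CPM, so that *Nrg4* was 1.69 times as high in AA as in Neg and *Nrg3* 0.576 times. *Egf*, at 2.48, 2.09 and 1.64 CPM, and *Nrg2*, at 7.36, 6.50 and 7.73 CPM, did not pass 1.5-fold in AA against Neg.

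None of the 4 genes of ligand shedding passed 1.5-fold in basal cells in AA against Neg or in AA+Ab against AA. Of all genes, 3.77% were higher and 5.89% lower in the first comparison, and 5.7% higher and 6.69% lower in the second. *Adam17*, the protease that releases most of these ligands, was at 43.7, 49.9 and 49.6 CPM. None of the 8 inhibitors and turnover genes passed either, among them *Errfi1*, an intracellular EGFR inhibitor, at 482, 470 and 340 CPM, and *Lrig1*, a membrane inhibitor, at 83.7, 82.9 and 82.8 CPM. Of 5 adaptors *Gab1*, a docking protein below the receptor, was higher in AA at 1.55 (1.47–1.63) and lower in AA+Ab than in AA at 0.570 (0.541–0.601). At the shares over all genes, few or none of 4, 8 or 5 genes would pass, so these counts do not set the lists apart.

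Genes of mitogen-activated protein kinase (MAP kinase) feedback and its targets went both ways in basal cells. Of 14 listed, 12 were measured, of which 5 were higher and 3 lower in AA than in Neg, beside 3.77% and 5.89% of all genes, with a median log2 ratio of 0.14 beside −0.06 over all genes. *Fosl1*, an AP-1 subunit, was at 511, 1023 and 419 CPM in Neg, AA and AA+Ab, *Dusp6*, an ERK phosphatase, at 69.0, 139 and 62.1, and *Phlda1*, a pleckstrin homology-domain protein, at 38.0, 164 and 40.8. *Dusp5*, a nuclear ERK phosphatase, was at 40.3, 75.7 and 23.0 CPM, and *Plaur*, the urokinase receptor, at 0.826, 2.31 and 1.31. These 5 genes were highest in AA, and all 5 were lower in AA+Ab than in AA. The values of this list are over the whole basal class, cluster 3 included, and were not computed without that cluster.

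The 3 lower in AA than in Neg were *Spry1*, *Spry2* and *Etv4*. *Spry2*, a feedback inhibitor of receptor tyrosine kinases, was at 14.96, 8.75 and 18.9 CPM, and *Etv4*, an ETS factor, at 5.90, 3.58 and 7.67 CPM. Both were higher in AA+Ab than in AA, at 2.16 and 2.15 times. *Spry1*, a relative of *Spry2*, was at 24.9, 15.4 and 21.9 CPM.

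Several of these genes are also early response genes, which rise during tissue digestion. The summed level of 14 dissociation and immediate-early genes was 25922, 27314 and 25430 CPM in the basal cells and 16227, 19311 and 16094 over all cells in Neg, AA and AA+Ab. In the basal cells 1 of the 14 was higher in AA than in Neg (*Ier3*, 1.52 times) and 1 lower (*Hspa1b*, 0.663 times), beside 3.77% and 5.89% of all genes. Interferon response genes differed between the libraries as well: in basal cells 5 of 8 measured were higher in AA than in Neg and 4 of 9 lower in AA+Ab than in AA (3.77% and 6.69% of all genes). Over all cells 12 of 12 were higher and 9 of 12 lower in the same comparisons (6.6% and 9.06% of all genes). The part of either list in the ligand values was not tested.

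Across 64 units of 1 class or unnamed cluster in 1 library, with at least 50 cells each, the genes whose log2(CPM + 5) was most like that of each member were found by Pearson's r over 15161 genes. *Tgfa* was nearest to *Ralgds* (r = 0.88) and *Cdcp1* (0.84), *Epgn* to *Dusp7* (0.85) and *Tollip* (0.84), *Hbegf* to *P3h2* (0.83) and *Pak6* (0.81), and *Nrg1* to the anchoring collagen gene *Col7a1* (0.82) and *Lrrfip2* (0.81). *Egfr* was nearest to *Egfros* (0.84), its overlapping neighbour on the other strand, and *Areg* to *Faah* (0.83). *Ereg* with *Bicdl2* (0.76) and *Btc* with *Anpep* (0.69) rest on few UMIs. Among the members themselves *Epgn*, *Hbegf*, *Tgfa* and *Nrg1* had r of 0.55 to 0.67 for each pair. The units share libraries and depth, and these values are descriptions.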

How the data were processed

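Single cells of pooled dorsal skin were profiled with droplet-based 10x 3′ libraries, 1 for each of Neg, AA and AA+Ab. The authors dissociated skin with collagenase D, passed cells through meshes and Percoll, aligned reads to mm10 and deposited unnormalized UMI counts for each gene in each barcode, from Cell Ranger 7.2.0 (the submitters' processing notes also name FastQC 0.11.7). The annotation release is not given in the sources used here, and the authors' cell labels were not used here. Depth was 119193310 to 139663314 UMIs per library after filtering.

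As in the study, cells above 10% mitochondrial UMIs and cells below 200 genes were dropped. They left 6582 Neg and 10433 AA cells, together more than the study states for these groups. The study also removed doublets, a step left out of the values reported here. Cells were clustered without the 8 member genes in scanpy 1.11.5 with leidenalg 0.10.2 (2000 variable genes, 30 components, 20 neighbours, resolution 1). A cluster took a name where at least 3 markers, and at least 50% of its list, were found in 25% of its cells at 1.5 times the level of other cells. It stayed unnamed where its 10 leading genes marked another class, where it passed as several classes, or where UMIs were few. These thresholds were set after clusters had been seen, including *Nrg1* as a leading gene of clusters 3 and 22. The 367, 908 and 826 cells with the highest doublet scores were removed in an alternative.

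UMIs of a gene were summed per class and library and set over the total of those cells. CPM carry exact Poisson intervals, shares Clopper-Pearson intervals and ratios exact conditional intervals, all at 95% (scipy 1.17.1). Only the coverage of the ratio intervals was checked, on simulated Poisson counts. These have no clumping of UMIs in single cells, so the check says nothing about such clumping. A ratio needed 50 UMIs over both libraries, and genes at least 1.5-fold apart were counted. Because 1 library per group allows no test, no p-value is given. A level needed 20 cells, and the genes named were the members, the genes of 8 fixed lists and the genes most like each member over classes. The members and lists were chosen with earlier results of these data known. *Hbegf* has no position or sequence here.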

Additional observations from a re-analysis of the deposited data

Results flagged for a closer look

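In 8 cases a gene's ratio between libraries had opposite directions in 2 classes, each at least 1.5-fold and with an interval that leaves out 1. The difference between classes was not tested in any of them, since each group is 1 library. Values are log2 ratios of CPM.

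For AA against Neg, *Hbegf* was at 1.38 in the suprabasal keratinocytes-like cells (3455 and 1209 UMIs) and −1.08 in the gamma-delta T cells-like (17 and 79 UMIs). A *Krt5* UMI was found in 54.9% of the gamma-delta T cells-like, and their share of cells with an *Hbegf* UMI was 11.0% in Neg and 5.31% in AA, beside 6% and 8.62% in skeletal muscle cells-like. For *Nrg1* the shares were 4.91% and 4.42%, beside 6% and 5.17%. The gamma-delta T cell values of these genes are therefore not read as expression in those cells. *Nrg1* was at 1.90 in the inner root sheath cells-like (103 and 42 UMIs) and −1.60 in the gamma-delta T cells-like (16 and 106 UMIs), where 1 Neg cell held 80 of the 106 and the Neg level without it was 19.98 CPM. For AA+Ab against AA, *Areg* was at 0.84 in the upper hair follicle keratinocytes-like cells (501 and 149 UMIs) and −0.83 in the basal keratinocytes-like cells (158 and 330 UMIs).

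*Ereg* for AA+Ab against AA was at 2.63 in the suprabasal cells (138 and 22 UMIs) and −2.28 in the upper hair follicle cells (17 and 44 UMIs), and 1 AA cell held 31 of the 44. *Nrg1* was at 0.66 in the hair matrix cells-like (217 and 89 UMIs) and −3.51 in the inner root sheath cells-like (9 and 103 UMIs).

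For AA+Ab against Neg, *Areg* was at 2.12 in the upper hair follicle cells (501 and 87 UMIs) and −0.98 in the T cells-like (188 and 230 UMIs, of which 94 were in 1 Neg cell). *Hbegf* was at 1.56 in the dendritic cells and macrophages-like (69 and 12 UMIs) and −1.71 in the inner root sheath cells-like (27 and 136 UMIs). *Nrg1* was at 0.87 in the hair matrix cells-like (217 and 89 UMIs) and −1.95 in the gamma-delta T cells-like (24 and 106 UMIs), with the same Neg cell. A *Krt5* UMI was found in 61.0% of the dendritic cells and macrophages-like.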

How the results depend on the processing

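With 1 library per group no library could be left out. No paired analysis was possible because the groups compared share fewer than 2 replicate numbers. Alternatives named with a cluster or with the richest cells were chosen after seeing the data. Over all cells, the count of members past 1.5-fold in AA against Neg, 3, became 5 without the 10 cells richest in each gene (*Areg* higher and *Ereg* lower in addition). In AA+Ab against AA the count of 6 became 3 with class levels weighted by the class shares of the reference library (*Epgn*, *Tgfa*, *Egfr*) and 2 without clusters 3, 18 and 22 (*Tgfa*, *Egfr*), and the 6 in basal cells became 1 without cluster 3. In AA+Ab against Neg the count of 1 over all cells became 2 at a mitochondrial limit of 5%, 2 with cells thinned to 2000 UMIs and 3 without the richest cells. In basal cells the count of 2 became 1 with doublets removed, 1 with thinned cells and 4 with no minimum of UMIs. Among ratios past 1.5-fold, directions turned for *Ereg* in AA+Ab against AA over all cells with a mean of per-cell CPM (log2 −0.12), for *Areg* in the same comparison in basal cells without cluster 3 (0.17) and for *Areg* in AA+Ab against Neg in basal cells at 1.5 times the resolution (−0.17). Among ratios within 1.5-fold, those of *Epgn* in AA against Neg turned without clusters 3, 18 and 22 over all cells (−0.17) and without cluster 3 in basal cells (−0.58), that of *Ereg* in AA against Neg over all cells turned with a mean of per-cell CPM (0.36) and with thinned cells (0.56) and was at 0.01 with weighted class levels, and those of *Btc*, and of *Areg* in AA+Ab against AA over all cells, lay near 0 and took either sign. The cause was not tested. Over all alternatives run, the AA to Neg ratio over all cells stayed within 1.93 to 2.36 for *Hbegf*, 2.10 to 2.58 for *Tgfa*, 1.77 to 2.37 for *Nrg1* and 1.33 to 1.54 for *Egfr*, and went from 0.891 to 1.46 for *Epgn*. Of the single-gene values under alternatives, 322 stayed within the counting interval of the value reported and 131 did not, and 3 ratios past 1.5-fold turned. *Ereg* and *Btc*, at up to 194 UMIs per library, are limited by depth.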
